A study of Mus musculus with 6 samples.

Results

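Complement is a set of blood and tissue proteins that tag cells and microbes for removal or lysis. The 9 genes described here are complement components and regulators listed by name, namely Masp1, Masp2, C4b, C2, C3, Cfb, Cd55, Cd59a and Serping1, out of 22180 genes measured in cultured mouse melanocytes. The members were chosen by their log2 differences in the same comparison, so the differences of its members between the cell lines are given as a description, without a test. Of the 9, 7 had a probe set paired with that gene alone. The probe set listed for Masp2 is also listed for Tardbp, so no value can be given to Masp2, and C3 was not analysed here.

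The comparison was made between 2 immortal melanocyte lines, each measured on 3 arrays. One carries 1 Sox10LacZ allele (Sox10LacZ/+) and was derived from Sox10LacZ/+; Ink4a-Arf null mice of 3 days of age. The other, melan-Ink4a-Arf-1, came from Cdkn2a tm1RDp/tm1RDp mice and is called wild type here, for Sox10. Both lines lack Ink4a-Arf, were backcrossed to C57BL/6J, and were kept in medium holding 10% serum, cholera toxin (200 pM) and phorbol ester (200 nM). The comparison addresses which genes differ in melanocytes heterozygous for Sox10, which encodes a neural crest transcription factor. Each genotype is 1 cell line, so genotype and line cannot be told apart.

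Complement can be started by 3 routes. In the classical and lectin routes, recognition molecules bind a surface and activate serine proteases, among them MASP-1 and MASP-2, which cleave C4 and C2. The fragments form an enzyme that splits C3, the central component, and in the alternative route factor B takes the place of C2. The membrane proteins CD55 (decay-accelerating factor) and CD59 (protectin) guard the body's own cells, the first by breaking up the C3-splitting enzymes and the second by blocking the lytic pore, and the secreted C1 inhibitor (Serping1) inactivates C1r, C1s and the MASPs. Most circulating complement is made in the liver, and other cells make components locally.

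All values are log2 signals, so a difference of 1 is a 2-fold difference in signal, and each difference is Sox10LacZ/+ minus wild type, given with its standard error (SE) from a linear model of all genes. A gene passed when its adjusted p was below 0.05. Array medians lay between 5.72 and 5.78. Signals under 5.20 (the 40th percentile over probe sets) are called dim, since they lie where the background of the array sets much of the value. At most 2 genes of any Sox10LacZ/+ array deviated 2-fold or more from the rest of its line, against 22, 261 and 54 genes of wild-type replicates 1, 2 and 3, so wild-type replicate 2 stood apart. Sox10 had 9.70, 9.70 and 9.79 in the Sox10LacZ/+ line, against 9.98, 9.80 and 9.95 in wild type, a difference of −0.18 (limma, adjusted p 0.213), and the labels do not state which part of the transcript was probed. Cdkn2a, the gene of Ink4a-Arf, averaged 7.07 ± 0.08 in the Sox10LacZ/+ line and 7.16 ± 0.12 in wild type (SD, n = 3 each). It was thus not dim in either line, and the labels do not state which part of its transcript was probed. Xist, expressed from the inactive X chromosome of female cells, averaged 11.06 ± 0.04 in the Sox10LacZ/+ line and 4.81 ± 0.07 in wild type (SD, n = 3 each). The lines thus also differ in this mark of sex.

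The labelled cell type was checked against markers. All 8 melanocyte markers were above the dim level in both lines, and 1 rose and 3 fell. Mitf rose (11.54 in Sox10LacZ/+ against 10.87 in wild type). Tyr (8.65 against 10.75), Oca2 (9.95 against 10.83) and Dct (12.35 against 13.03) fell. The summed linear signal of the 8 was 32640 to 33221 in Sox10LacZ/+ arrays and 34464 to 39687 in wild-type arrays. Among other cell types, the 10 fibroblast markers summed to 6157 to 6294 in the Sox10LacZ/+ line and 948 to 1204 in wild type, with 4 higher, 0 lower and 1 (Lum) dim in both lines. Those higher, on the log2 scale, were Dcn (10.80 in Sox10LacZ/+ against 4.88 in wild type) and Pdgfrb (10.35 against 6.27). Fbln1 (10.88 against 7.71) and Col1a2 (7.60 against 6.35) were the others. The remaining 6 fibroblast markers did not pass. Of the 10 differences 7 were positive and 3 negative, with a median of 0.62. The 11 macrophage and leukocyte markers summed to 687 to 723 in the Sox10LacZ/+ line and 496 to 535 in wild type, with 2 higher and 6 dim in both lines. Those higher were Cd68 (8.46 in Sox10LacZ/+ against 7.14 in wild type) and Fcer1g (6.08 in Sox10LacZ/+ against 5.72 in wild type), and the dim ones were Ptprc, Adgre1, Aif1, Cd14, Cd163 and Cd3e. Most of the 11 did not share the rise of the sum: 4 differences were positive and 7 negative, with a median of −0.04. Lyz2 had a lower mean in Sox10LacZ/+ (5.79 against 6.22 in wild type) and did not pass. The 7 hepatocyte markers summed to 277 to 285 in the Sox10LacZ/+ line and 271 to 291 in wild type, with 0 passing (1 at an unadjusted p below 0.05) and 5 dim in both lines, Alb among them. The 7 keratinocyte markers summed to 572 to 644 in the Sox10LacZ/+ line and 513 to 662 in wild type, with 0 passing (1 at an unadjusted p below 0.05) and 3 dim in both lines. The part of these markers in the results was not tested.

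Of the 7 measured members, Masp1 was far higher in the Sox10LacZ/+ line, C2 was lower, Cd59a and C4b had lower means with a wide spread among the wild-type arrays, and Cfb, Cd55 and Serping1 differed by at most 0.25 on the log2 scale. By the limma fit 2 of the 7 passed, Masp1 and C2, beside 13.4% of all genes, and 1 of the 7 (Masp1) both passed and differed at least 2-fold, beside 3.53% of all genes. For 4 of the 7 no array of one line lay within the range of the other, beside 31.6% of all genes. Nothing is read from these counts, because the members were listed with this contrast known. The median difference of the 7 was −0.25, beside 0.001 over all genes, and for the same reason nothing is read from it.

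**Figure D1:**
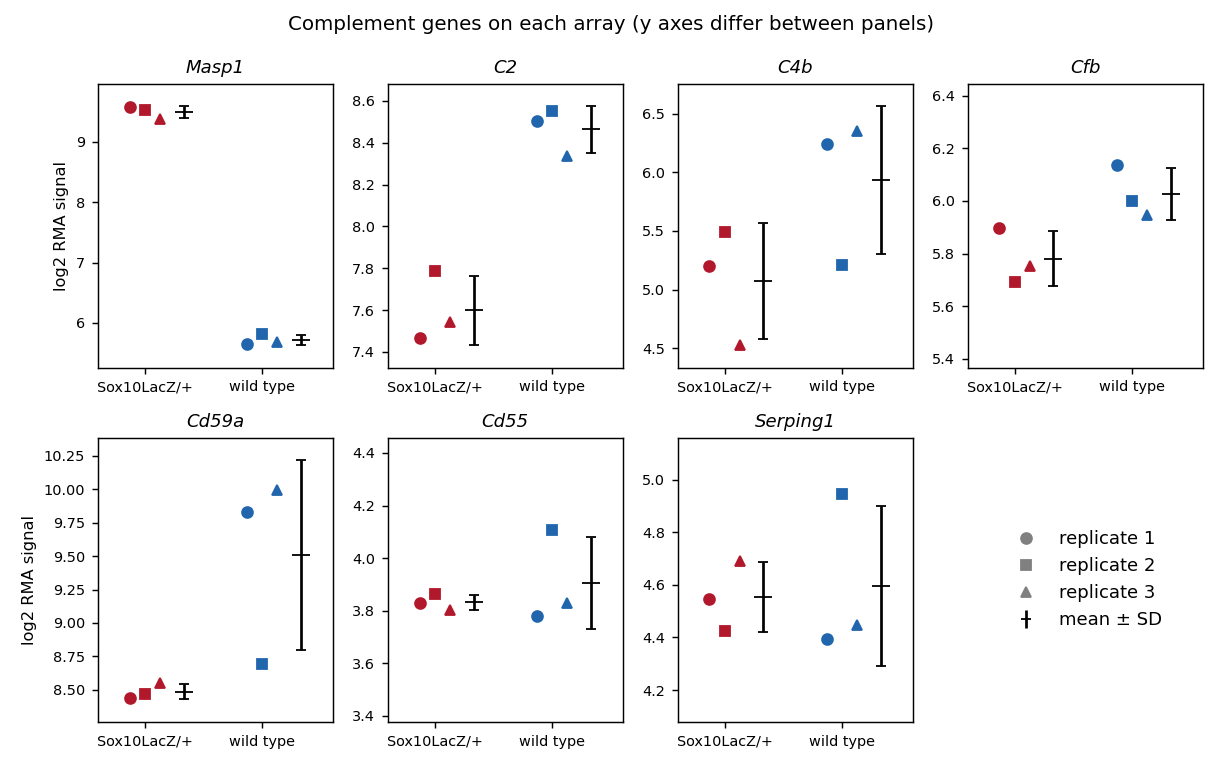
Log2 signal of each measured complement gene on each array, with Sox10LacZ/+ arrays (red) left of wild-type arrays (blue), symbols for replicates 1 to 3, and the mean ± SD of 3 arrays in black; y axes differ between panels. Masp1 lies between 9.37 and 9.57 in the Sox10LacZ/+ line and between 5.66 and 5.81 in wild type, and wild-type replicate 2 is the low wild-type array for Cd59a and C4b.

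Masp1 encodes mannose-binding lectin-associated serine protease 1, which starts the lectin pathway by activating MASP-2. The gene (Entrez 17174) lies on mouse chromosome 16, from 23451785 to 23521240 in build GRCm38.p6. Its signal was 9.57, 9.52 and 9.37 in the Sox10LacZ/+ arrays, against 5.66, 5.81 and 5.68 in the wild-type arrays. Every Sox10LacZ/+ array was thus far above every wild-type array, and the spread within a line, 0.19 in Sox10LacZ/+ and 0.15 in wild type, was small beside the gap. The difference was 3.77 (SE 0.08), a 13.6-fold higher signal, and it stayed between 3.73 and 3.83 with any single array left out. Neither line was dim for Masp1, but its wild-type mean of 5.72 lay at the level of the array medians. Whether that wild-type signal stands above background was not tested. Its transcripts are spliced into several products, the proteases MASP-1 and MASP-3 and a form without a protease domain, and the labels do not state which of them the probe set reads.

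C2 encodes the protease that is cut next in the classical and lectin routes, as part of the enzyme that splits C3. C2 (Entrez 12263; chromosome 17, 34862602 to 34882100) had 7.47, 7.79 and 7.54 in Sox10LacZ/+ arrays, against 8.50, 8.55 and 8.34 in wild-type arrays. The 3 Sox10LacZ/+ arrays were all below the 3 wild-type arrays. The difference was −0.86 (SE 0.11), a 1.82-fold lower signal, and wild-type replicate 2 did not stand apart in this gene, lying 0.13 above the mean of the other 2.

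C4b encodes complement component 4, the partner of C2 in the C3-splitting enzyme. C4b (Entrez 12268; chromosome 17, 34728139 to 34743902) had 5.20, 5.49 and 4.53 in Sox10LacZ/+ arrays, against 6.24, 5.21 and 6.35 in wild-type arrays. The lines overlapped, because wild-type replicate 2 fell among the Sox10LacZ/+ arrays, and the Sox10LacZ/+ mean of 5.07 was dim. The difference was −0.86 (SE 0.34), and −1.22 without wild-type replicate 2. C4a, the neighbouring copy of C4b, whose transcript is close enough in sequence that probe sets may share signal, was dim in both lines, at 4.56 ± 0.20 in Sox10LacZ/+ and 4.64 ± 0.39 in wild type (SD, n = 3 each). Its difference of −0.08 did not pass (limma, adjusted p 0.855).

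Cfb encodes factor B, which does in the alternative pathway what C2 does in the other routes. Cfb (Entrez 14962; chromosome 17, 34856374 to 34862514) had 5.90, 5.69 and 5.75 in Sox10LacZ/+ arrays, against 6.14, 6.00 and 5.95 in wild-type arrays. The arrays did not overlap, but the nearest pair, Sox10LacZ/+ replicate 1 and wild-type replicate 3, lay close together. The difference was −0.25 (SE 0.09), a 1.19-fold lower signal. Cfb and C2 are adjacent, with 87 bases between their annotated spans, yet the C2 difference was the larger of the pair on the log2 scale.

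Cd59a encodes CD59, a membrane protein held by a glycosylphosphatidylinositol (GPI) anchor that stops C9 from completing the lytic pore. Cd59a (Entrez 12509; chromosome 2, 104095753 to 104115410) had 8.44, 8.47 and 8.55 in Sox10LacZ/+ arrays, against 9.83, 8.69 and 10.00 in wild-type arrays. The Sox10LacZ/+ arrays were tightly grouped and all lay below wild type, whereas the wild-type arrays spread over 1.31. Wild-type replicate 2 was 1.22 below the mean of the other 2 on the log2 scale. The difference was −1.02 (SE 0.30), a 2.02-fold lower signal, and it was −1.43 (2.69-fold lower) without wild-type replicate 2.

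Cd59b, a second mouse copy of the gene that ends 9962 bases before Cd59a begins, was not among the 9. Cd59b fell in the Sox10LacZ/+ line: it had 4.06, 4.35 and 3.91 there, against 5.06, 4.70 and 4.87 in wild-type arrays, a difference of −0.76 (SE 0.13; limma, adjusted p 0.00772; 0.00273 to 0.0392 over the alternatives). No Sox10LacZ/+ array reached the lowest wild-type array, but both lines were dim for Cd59b. The copies are close in sequence, and whether their probe sets share signal was not tested. Since both copies were lower, 1 window of each is shown, from 250 bases before to 50 bases after a transcript start in RefSeq's GRCm38.p6 table, at chr2:104095551-104095850 for Cd59a and chr2:104070816-104071115 for Cd59b, both on the + strand; capitals mark a match to 1 of the motifs described next. The Cd59a window begins 202 bases before the annotated span of its gene, whereas the Cd59b window begins 1035 bases inside its span and lies within the gene.
Cd59a: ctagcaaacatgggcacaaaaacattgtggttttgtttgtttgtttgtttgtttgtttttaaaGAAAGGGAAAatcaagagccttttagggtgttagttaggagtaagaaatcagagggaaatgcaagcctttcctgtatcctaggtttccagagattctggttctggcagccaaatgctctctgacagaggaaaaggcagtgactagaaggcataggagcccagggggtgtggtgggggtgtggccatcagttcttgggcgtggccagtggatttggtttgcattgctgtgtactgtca
Cd59b: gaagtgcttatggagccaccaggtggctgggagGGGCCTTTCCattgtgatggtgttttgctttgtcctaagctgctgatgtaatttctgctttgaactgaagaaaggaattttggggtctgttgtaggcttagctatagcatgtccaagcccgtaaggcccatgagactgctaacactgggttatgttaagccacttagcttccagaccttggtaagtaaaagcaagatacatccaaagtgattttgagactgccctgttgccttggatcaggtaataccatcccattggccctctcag

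Both strands of these windows were searched for 6 motifs: a SOX motif (AACAAT), the interferon-gamma activated site of STAT factors (TTCNNNGAA), the interferon response element (GAAA, any 2 bases, GAAA), an NF-kB motif (GGG, any 2 bases, TTTCC), the AP-1 motif of phorbol ester response (TGANTCA) and the E-box bound by MITF (CATGTG). The Cd59a window held 1 match, to the interferon response element, which 3.44% of the 32851 promoter windows in the table hold. The Cd59b window also held 1 match, to the NF-kB motif, which 1.63% of all windows hold. The matches are a description of letters and not sites of binding. Of the 7 measured members the table held a window for 2, and that of the other, Cd55, which begins 2015 bases inside its gene, had no match to any of the 6 motifs. Of the unmeasured members, the Masp2 window, which begins 7672 bases inside its gene, held 1 match to the STAT site, which 8.30% of windows hold, and the C3 window held none.

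Cd55 encodes decay-accelerating factor, the GPI-anchored protein that takes apart the C3-splitting enzymes. Cd55 (Entrez 13136; chromosome 1, 130429798 to 130465009) had 3.83, 3.86 and 3.80 in Sox10LacZ/+ arrays, against 3.78, 4.11 and 3.83 in wild-type arrays. The lines overlapped and both were dim. The difference was −0.07 (95% confidence interval −0.30 to 0.15), and 0.03 without wild-type replicate 2. Its copy Cd55b was dim too, at 3.96 ± 0.10 in Sox10LacZ/+ and 3.86 ± 0.02 in wild type (SD, n = 3 each; limma, adjusted p 0.493).

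Serping1 encodes C1 inhibitor, a secreted protease inhibitor that holds back the first proteases of the classical and lectin routes, MASP-1 included. Serping1 (Entrez 12258; chromosome 2, 84765360 to 84775444) had 4.55, 4.43 and 4.69 in Sox10LacZ/+ arrays, against 4.40, 4.95 and 4.45 in wild-type arrays. The lines overlapped, both were dim, and wild-type replicate 2 was the highest array of all. The difference was −0.04 (95% confidence interval −0.39 to 0.31), and 0.13 without wild-type replicate 2. No difference in Cd55 or Serping1 was detected, which at these dim signals does not show that the lines are alike in them.

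Few of the other complement genes passed, and many were dim in both lines. Of 49 other complement genes 46 were measured; 3 rose, 1 fell and 42 did not pass by limma, so that 8.70% passed beside 13.4% of all genes (7.46% higher and 5.92% lower). Their median difference was −0.01, and 24 of the 46 were dim in both lines. The 3 that rose were C1rl, Cd93 and C8g, and the 1 that fell was Cd59b. Without wild-type replicate 2, 4 rose and 2 fell, and without Sox10LacZ/+ replicate 2 or 3, 1 rose and 1 fell.

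**Figure D2:**
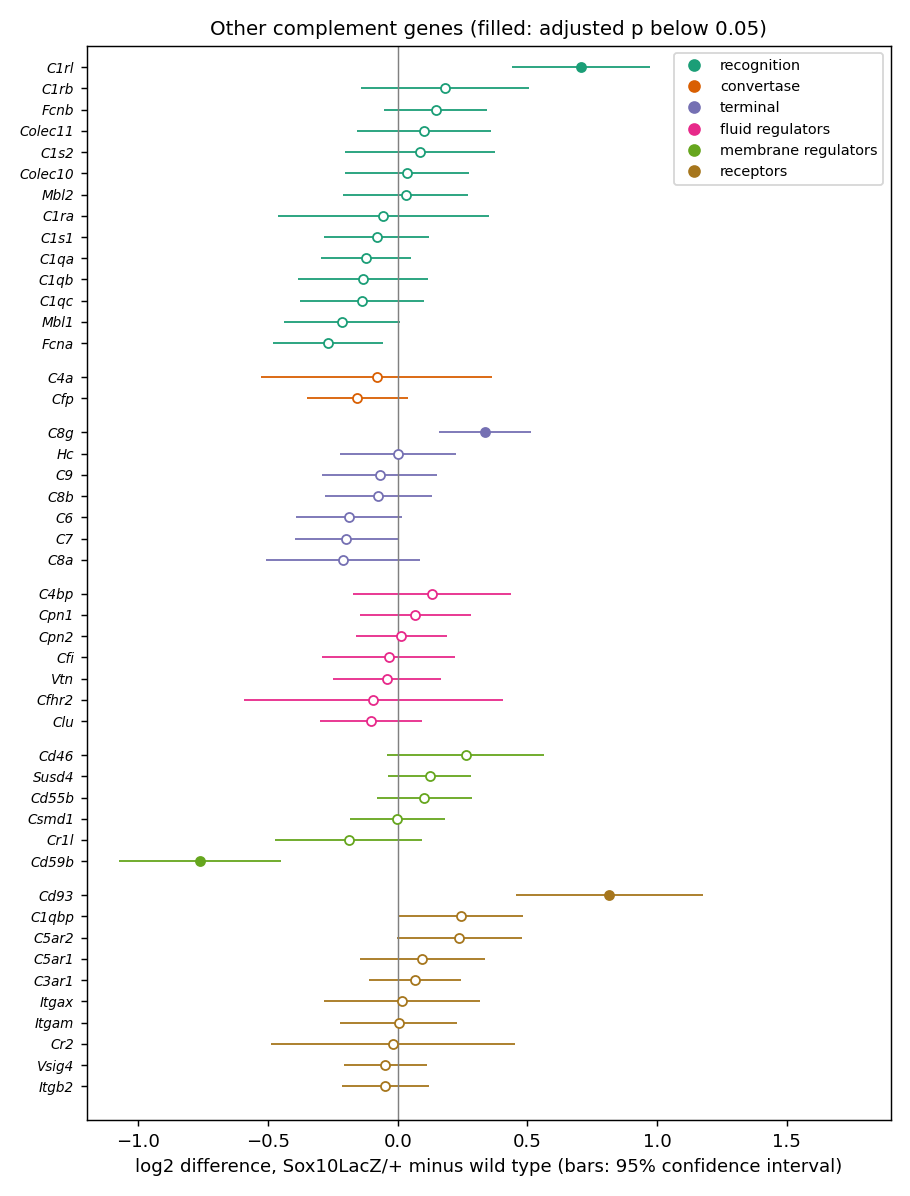
Log2 differences, Sox10LacZ/+ minus wild type, of the 46 other measured complement genes by role, with bars for the 95% confidence interval; filled points have an adjusted p below 0.05. C1rl, C8g and Cd93 are the filled points right of 0 and Cd59b the one left of it.

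Among the 14 recognition molecules and first proteases, C1rl rose and 13 did not pass. C1rl encodes a protease resembling C1r. It had 7.45, 7.61 and 7.43 in Sox10LacZ/+ arrays, against 6.95, 6.86 and 6.56 in wild-type arrays, with no overlap, and the difference was 0.71 (SE 0.11; limma, adjusted p 0.00499; 0.00313 to 0.0278 over the alternatives). C1rl lies on chromosome 6, where the median difference of the 726 genes not dim in both lines was 0.23, against 0.01 for all 14931 such genes, and the part of this shift in C1rl was not tested. C1qa and C1qb, 2 chains of the classical pathway's recognition molecule, differed by −0.12 (adjusted p 0.376) and −0.13 (adjusted p 0.519). The lectin pathway's recognition genes, the mannose-binding lectins Mbl1 and Mbl2, the ficolins Fcna and Fcnb and the collectins Colec10 and Colec11, are among those that did not pass, with differences from −0.27 (Fcna) to 0.15 (Fcnb).

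Of the 3 convertase and alternative pathway genes outside the 9, 2 were measured and 0 passed by limma, with 0 at an unadjusted p below 0.05: C4a and Cfp, which encodes properdin, the stabiliser of the alternative pathway enzyme (−0.16, adjusted p 0.31). Of the 7 terminal genes, whose products build the lytic pore, C8g rose and 6 did not pass. C8g, a lipocalin chain of component C8, had 5.57, 5.72 and 5.72 in Sox10LacZ/+ arrays, against 5.32, 5.39 and 5.30 in wild-type arrays. The difference was small at 0.34 (SE 0.08; limma, adjusted p 0.0244; 0.0151 to 0.111 over the alternatives) and lost its call without Sox10LacZ/+ replicate 2 or 3 or wild-type replicate 1 or 3. The genes of the other C8 chains, C8a and C8b, differed by −0.21 (adjusted p 0.376) and −0.07 (adjusted p 0.686).

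Of 9 fluid-phase regulators outside the 9 members, 7 were measured and 0 passed by limma, with 0 at an unadjusted p below 0.05, and 6 were dim in both lines. The pair with the highest signal were Clu, or clusterin (−0.10, adjusted p 0.533), and Vtn, or vitronectin (−0.04, adjusted p 0.839). Of 6 other membrane regulators and copies, Cd59b fell and 5 did not pass. Cr1l encodes Crry, which protects mouse cells from the C3-splitting enzymes. It averaged 8.56 ± 0.07 in Sox10LacZ/+ and 8.75 ± 0.24 in wild type (SD, n = 3 each), a difference of −0.19 that did not pass (limma, adjusted p 0.402). Without wild-type replicate 2 the Cr1l difference was −0.33 and passed (adjusted p 0.0263; 0.0263 to 0.698 over the alternatives). Cd46, which encodes a cofactor for the breakdown of C3b and C4b, differed by 0.26 (adjusted p 0.271).

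Of 10 receptor genes Cd93 rose and 9 did not pass. Cd93, once described as a C1q receptor and known as a glycoprotein of endothelial and myeloid cells, had 6.21, 6.50 and 6.45 in Sox10LacZ/+ arrays, against 5.23, 5.82 and 5.66 in wild-type arrays. Every Sox10LacZ/+ array lay above every wild-type array. The Cd93 difference was 0.82 (SE 0.16; limma, adjusted p 0.0112; 0.00219 to 0.0541 over the alternatives), with adjusted p 0.0541 without Sox10LacZ/+ replicate 2 and 0.0503 without replicate 3. The 6 endothelial markers summed to 226 to 242 in linear signal in the Sox10LacZ/+ line and 193 to 214 in wild type, with 1 (Vwf) higher and 3 dim in both lines, and their part in the Cd93 result was not tested. C1qbp, which encodes a mitochondrial protein that also binds C1q, differed by 0.24 (adjusted p 0.187), and by 0.34 without wild-type replicate 2, where it passed (adjusted p 0.0212; 0.0212 to 0.439 over the alternatives). C5ar2, a receptor gene for the C5a fragment, differed by 0.24 (adjusted p 0.208). The other C5a receptor gene, C5ar1, and the C3a receptor gene C3ar1 were dim in both lines.

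Complement genes are known targets of interferon-gamma, interleukin-6 and NF-kB signalling, so genes of these pathways were set beside them. Of 26 listed, 24 were measured, of which 3 rose, 6 fell and 15 did not pass by limma. This was 37.5% passing beside 13.4% of all genes, with a median difference of 0.01. Of the 24, 1 was dim in both lines, against 7249 of all 22180 genes. The list was chosen with earlier results of these data known, so nothing is read from the share. Il6 rose most. It encodes interleukin-6 and had 6.75, 6.44 and 6.58 in Sox10LacZ/+ arrays, against 3.79, 4.14 and 4.07 in wild-type arrays, where it was dim. The difference was 2.59 (SE 0.12; limma, adjusted p 4.06e-06; 1.1e-06 to 8.91e-05 over the alternatives).

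Of the receptor genes for this cytokine family, Il6st, Osmr and Lifr fell and Il6ra, which encodes the interleukin-6 receptor itself, did not pass. Il6ra had 6.15, 6.19 and 6.09 in Sox10LacZ/+ arrays, against 6.32, 6.70 and 6.47 in wild-type arrays, a difference of −0.36 (limma, adjusted p 0.0626; 0.0384 to 0.197 over the alternatives). Il6st encodes gp130, the receptor chain that interleukin-6, oncostatin M and leukaemia inhibitory factor share, and averaged 9.61 ± 0.02 in Sox10LacZ/+ and 10.70 ± 0.29 in wild type (SD, n = 3 each). Its difference was −1.09 (SE 0.14; limma, adjusted p 0.00139; 1.98e-05 to 0.00956 over the alternatives). The oncostatin M receptor gene Osmr differed by −1.46 (SE 0.34, adjusted p 0.0277) and the leukaemia inhibitory factor receptor gene Lifr by −0.81 (SE 0.19, adjusted p 0.0258). Wild-type replicate 2 was the low wild-type array in the 3 receptor genes that fell, by 0.51 in Il6st, 1.36 in Osmr and 0.70 in Lifr on the log2 scale. Osmr and Lifr lost their calls in 5 of the 6 fits with 1 array left out, all but that without wild-type replicate 2 (adjusted p up to 0.105 for Osmr and 0.0991 for Lifr; from 7.37e-05 and 0.000245 over the alternatives).

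The other genes of this list that passed were named after their values were seen. Ifngr2, a chain of the interferon-gamma receptor, rose by 0.51 and Cebpa by 0.62, while Stat3, which carries the gp130 signal, fell by 0.65, Cebpd by 0.56 and Nfkb2 by 0.38. Stat3 and Ifngr2 passed with every single array left out, but Cebpa and Nfkb2 lost their calls in 4 of the 6 such fits (adjusted p up to 0.0848 and 0.101) and Cebpd in 1 (0.0542).

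**Figure D3:**
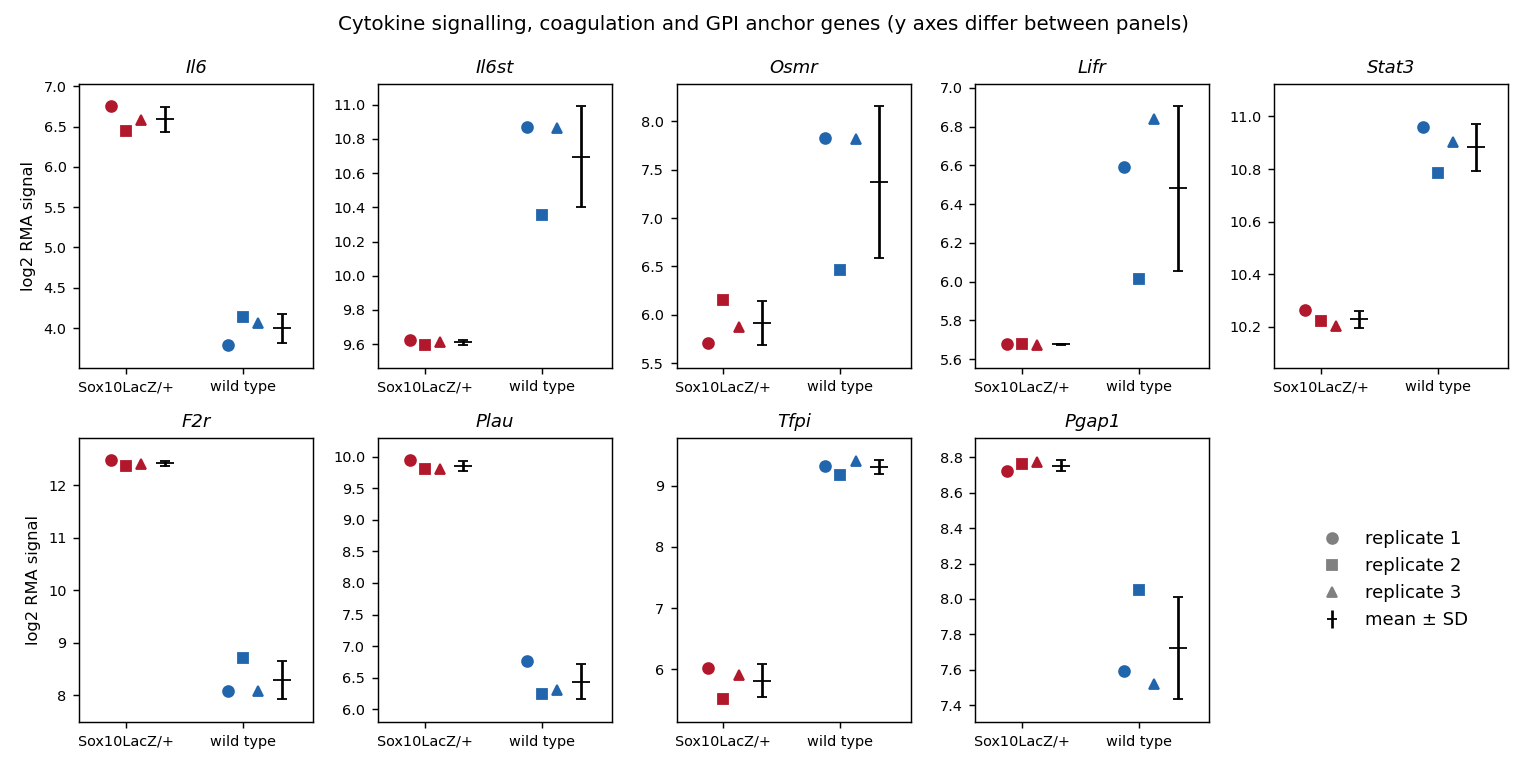
Log2 signal on each array for genes of cytokine signalling, coagulation and GPI anchor processing that passed, with Sox10LacZ/+ arrays (red) left of wild type (blue) and the mean ± SD of 3 arrays in black; y axes differ between panels. Wild-type replicate 2 (square) is the low wild-type array in Il6st, Osmr and Lifr, while F2r, Plau and Tfpi show differences of 4.12, 3.42 and −3.49.

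The serine protease cascades of coagulation and fibrinolysis share inhibitors and substrates with complement. Of 21 listed genes of these cascades and other protease inhibitors, 18 were measured; 2 rose, 4 fell and 12 did not pass by limma, or 33.3% passing beside 13.4% of all genes, with a median of −0.04. This list too was chosen with earlier results of these data known, so nothing is read from the share. The thrombin receptor gene F2r had 12.47, 12.37 and 12.39 in Sox10LacZ/+ arrays, against 8.08, 8.71 and 8.08 in wild-type arrays. The gap was far wider than the spread within either line, at 4.12 (SE 0.16; limma, adjusted p 1.78e-06; 8.45e-08 to 4.76e-05 over the alternatives).

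Plau, which encodes the plasminogen activator urokinase, rose by 3.42 (SE 0.14, adjusted p 1.8e-06). It averaged 9.85 ± 0.08 in Sox10LacZ/+ and 6.44 ± 0.28 in wild type (SD, n = 3 each). Tfpi, which encodes the inhibitor of the tissue factor route of coagulation, fell by 3.49 (SE 0.14, adjusted p 1.64e-06), to 5.81 ± 0.27 in Sox10LacZ/+ against 9.30 ± 0.11 in wild type (SD, n = 3 each; limma). Procr, the endothelial protein C receptor gene, fell by 0.45 (SE 0.09, adjusted p 0.015; 0.0107 to 0.0619 over the alternatives) and lost its call without Sox10LacZ/+ replicate 1. The other 2 that fell, Plat and Serpinf1, were named after their values were seen and lost their calls in 4 and 5 of the 6 fits with 1 array left out.

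CD55 and CD59 need a GPI anchor to stay on the membrane. Of 24 genes for making, attaching and remodelling it, 21 were measured; 2 rose, 1 fell and 18 did not pass by limma, or 14.3% passing beside 13.4% of all genes, with a median of −0.002. Pgap1, which encodes an enzyme that trims the anchor in the endoplasmic reticulum, rose by 1.03 (SE 0.14, adjusted p 0.00173). It had 8.72, 8.77 and 8.78 in Sox10LacZ/+ arrays, against 7.59, 8.05 and 7.52 in wild-type arrays, with no overlap. Pigl, a deacetylase gene of an early step, rose by 0.52 (SE 0.13, adjusted p 0.0339; 0.0011 to 0.124 over the alternatives) but did not pass in 5 of the 6 fits with 1 array left out, all but that without wild-type replicate 2. Pigt, a subunit gene of the complex that attaches the anchor, fell by 0.48 (SE 0.07, adjusted p 0.00287; 0.000475 to 0.0211 over the alternatives).

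The 7 measured members lie at 5 places in the genome. C4b, Cfb and C2 lie within 153962 bases on chromosome 17, in the class III region of the major histocompatibility complex. To see whether members moved with their surroundings, the 5 nearest measured genes on each side of each member were taken, 56 genes in all without the members. Of these 3 rose, 3 fell and 50 did not pass by limma, or 10.7% passing beside 13.4% of all genes, with a median of 0.01. Around C4b, C2, Cfb and Serping1 0 neighbours passed. An unadjusted p below 0.05 was found for 2 neighbours of C2 and 1 each of Cfb and Serping1. Around Cd59a, Tcp11l1 rose by 0.87 (limma, adjusted p 0.00024) and Cd59b fell by 0.76. Around Cd55, Cxcr4 rose by 0.90 (limma, adjusted p 0.0033).

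**Figure D4:**
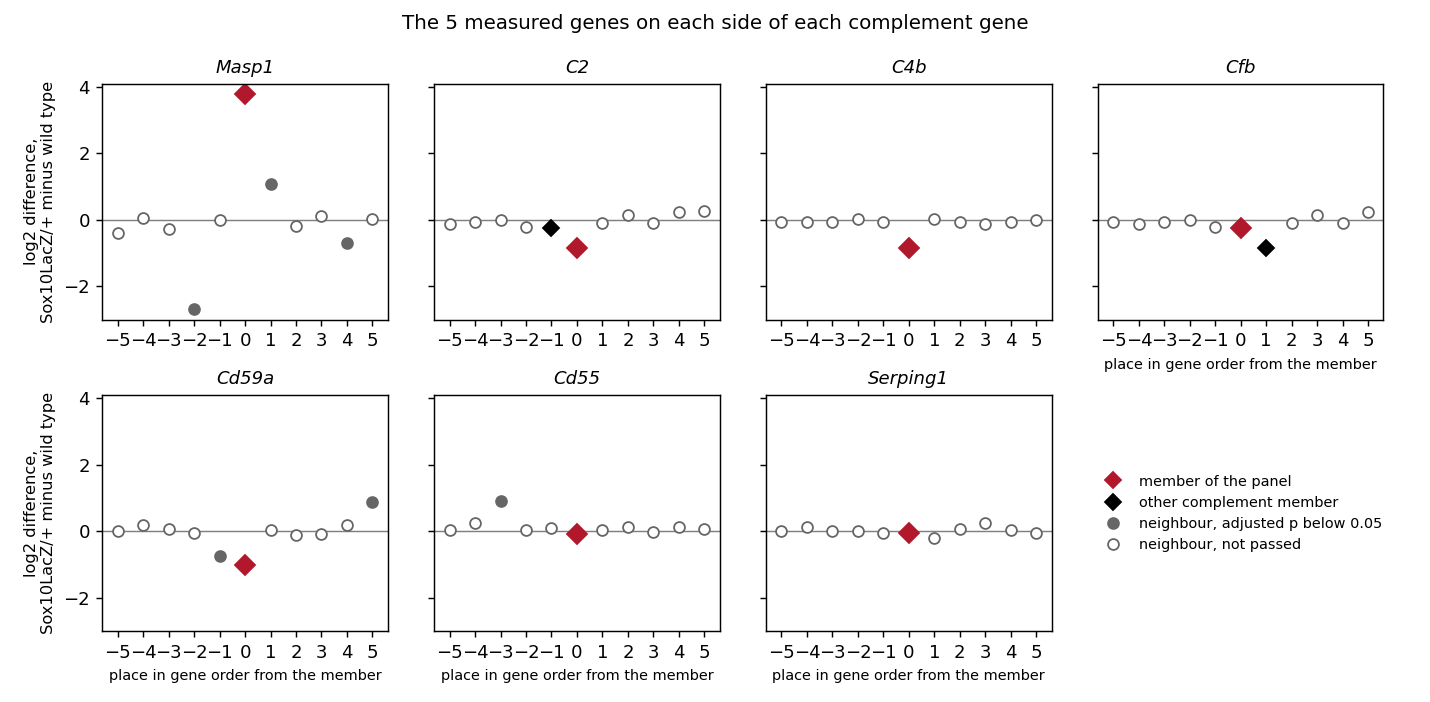
Log2 differences, Sox10LacZ/+ minus wild type, of each member (red diamond) and of the 5 measured genes on each side of it in gene order; filled circles are neighbours with an adjusted p below 0.05 and black diamonds are other members. The neighbours of C4b, C2, Cfb and Serping1 lie between −0.22 and 0.27 and none is filled. Those of Masp1 range from −2.70 to 1.06, those of Cd59a from −0.76 to 0.87 and those of Cd55 from −0.03 to 0.90.

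Around Masp1, 1 neighbour rose and 2 fell of 10. Rtp4, which encodes a chaperone of receptor transport and is known as an interferon-stimulated gene, had 6.39, 6.42 and 6.39 in Sox10LacZ/+ arrays, against 5.39, 5.54 and 5.10 in wild-type arrays, a difference of 1.06 (SE 0.11; limma, adjusted p 0.000487). Its annotated span shares 1022 bases with that of Masp1, and whether the probe sets share signal was not tested. St6gal1, a sialyltransferase gene, went the other way, at 7.94 ± 0.10 in Sox10LacZ/+ and 10.64 ± 0.16 in wild type (SD, n = 3 each), a difference of −2.70 (SE 0.10; limma, adjusted p 1.28e-06). The second neighbour that fell, Bcl6, a transcriptional repressor gene beyond Rtp4, differed by −0.70 (limma, adjusted p 0.000455). Rtp1, the nearest measured gene on the side of St6gal1, differed by −0.02 (limma, adjusted p 0.961).

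The genes whose pattern over the 6 arrays was most like that of 2 members were found among 990 named autosomal genes with an SD of at least 0.5. For Masp1, the member with the most positive difference, they were Tfec, a transcription factor gene of the MITF family (Pearson r 0.9997), Plekhh2 (0.9995) and Ulbp1 (0.9995). For Cd59a, the member with the most negative difference, they were Casp12, a caspase gene (0.996), Atp2b4, a calcium pump gene (0.996), and Cfap100 (0.995). These correlations share the 6 arrays and mostly the gap between the lines: 362 of the 990 genes had an r above 0.95 with Masp1. For Cd59a 70 genes did, and its 3 nearest genes all had their low wild-type value in replicate 2.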

How the data were processed

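RNA of 6 samples of 2 melanocyte lines was biotin-labelled and measured on 1-colour Affymetrix arrays. The authors deposited log2 values made with RMA, a method of background correction, normalisation and probe summary, and named Partek, per the submitters' processing notes. The sources used here give no version or setting. The values were not scaled further.

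Of 41345 probe sets, 23521 carried 1 gene symbol, 1814 had several symbols and 16010 are unnamed here. For genes with several probe sets (1082 of 22180) the one with the highest mean over the 6 arrays was used. Symbols come from the platform's annotation and positions from RefSeq, build GRCm38.p6, through Entrez identifiers; 21991 genes had a position.

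Differences were tested with limma 3.58.1 under R 4.3.3 (linear model with moderated variance, 2-sided, 4 residual and 7.87 total degrees of freedom), with Benjamini-Hochberg adjustment over all 22180 genes and a threshold of 0.05. In all, 1654 genes were higher and 1313 lower. The fit was tested on simulated data. The titles number the replicates without saying whether they are separate cultures, so a p-value reflects no more than how these arrays vary, which may be technical, and the number of arrays limits the precision. Deviations of arrays with the same replicate number did not correlate over genes (r of 0.007, 0.016 and −0.004), so no block was used.

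The members, the gene lists and the markers were chosen with earlier results of these data known. Beside subgroups given whole, the text names all members and every other complement gene that passed. It also names the 2 brightest genes of each complement list that did not pass. Of each related list up to 4 passing genes are named by size of difference. Neighbours past 2-fold and the 3 genes most like 2 of the members are named too. The other neighbours Bcl6, Rtp1, Tcp11l1 and Cxcr4 were named after their values were seen. The alternatives re-scaled the arrays (quantiles or medians), dropped dim genes, averaged probe sets, changed the variance model (trend, robust, array weights), blocked on replicate number, or omitted 1 array at a time. A planned comparison of proteins was not run.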

Additional observations from a re-analysis of the deposited data

How the results depend on the processing

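Under the alternatives that kept all arrays, the differences of the 7 measured members moved by less than the spread between replicates. Several of these, such as the trend and robust fits, leave a difference unchanged. With 1 array left out, this limit could not be exceeded, whatever the values, so it says nothing there. The Cd59a difference then ranged from −1.43 to −0.77 and that of C4b from −1.22 to −0.59. Cd55 (0.03) and Serping1 (0.13) changed sign without wild-type replicate 2. The median of the 7 was −0.25, and −0.30 to −0.19 with 1 array left out. It was −0.86 with dim genes left out, which drops Cd55 and Serping1. Members past the threshold numbered 2, 3 with the replicate number as a block, and 4 with array weights or without wild-type replicate 2. With 1 array left out, 1768 to 4222 of all genes passed, the 3 lowest counts (1817, 1780 and 1768) without Sox10LacZ/+ replicates 1, 2 and 3. For the other complement genes the range was 2 to 6, with 1 to 2 among recognition genes, 0 to 1 among terminal genes, 1 to 2 among membrane regulators and 0 to 2 among receptors. It was 2 to 5 among GPI anchor genes, 4 to 10 among cytokine and transcription factor genes (4 without Sox10LacZ/+ replicate 2), and 3 to 8 among coagulation and inhibitor genes (3 without Sox10LacZ/+ replicate 1). With dim genes left out, 0 membrane regulators passed, since Cd59b is no longer tested, and 5 GPI anchor genes, where the cause was not tested. With the replicate number as a block, 2512 genes passed, and C8g lost its call (adjusted p 0.0569), leaving 0 terminal genes; the numbers do not pair the samples. Of the counts and medians under alternatives that keep all arrays, 107 were within the limit of 1.5 times (counts) or the replicate spread (medians) and 5 were not. With 1 array left out, 65 were within this limit and 19 were not.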

Other observations

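Wild-type replicate 2 differed from the other wild-type arrays by a wide margin in the genes given here, which were singled out after their values were seen. Serpina3n, an acute-phase protease inhibitor gene, had 5.23, 4.72 and 5.53 in Sox10LacZ/+ arrays, against 10.40, 5.85 and 10.36 in wild-type arrays. Relative to wild-type replicates 1 and 3 averaged, replicate 2 lay 4.53 lower on the log2 scale in Serpina3n, 1.36 lower in Osmr, 1.22 lower in Cd59a and 1.09 lower in C4b, while the median over all genes was 0.001. The Serpina3n difference of −3.71 did not pass (limma, adjusted p 0.0646), and without wild-type replicate 2 it was −5.22 and passed (adjusted p 5.78e-06; 5.78e-06 to 0.201 over the alternatives). In Serping1 and Cd55 the same array lay above the other wild-type arrays, by 0.52 and 0.30. What sets this array apart was not tested.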
